A study of Mus musculus with 24 samples.

Results

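Foxp3 regulatory T cells (Tregs) of Panc02 tumors were chosen by their counts in the deposited RNA matrix, with a gate on unique molecular identifiers (UMIs), the tags that count 1 captured RNA molecule each. A member had at least 1000 UMIs, under 10% mitochondrial UMIs, at least 1 UMI of Foxp3, at least 1 UMI of the CD3 genes Cd3d, Cd3e, and Cd3g together, no UMI of Cd8a or Cd8b1, no UMI of the B cell gene Cd79a, and at most 1 UMI of the macrophage gene C1qb. The gate held 598 of 144994 barcodes, of which 120912 passed the UMI and mitochondrial limits and 19739 were T cells by the CD3, Cd79a, and C1qb limits. The comparison classes were 1223 Foxp3-negative CD4 T cells and 12834 Foxp3-negative CD8 T cells. The CD4 T cells had at least 1 UMI of Cd4 and none of the CD8 genes. A Treg with a Cd4 UMI but no captured Foxp3 UMI falls into that class, and the number of such cells was not tested.

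Tregs are CD4 T cells that hold immune responses in check. The transcription factor Foxp3 keeps their program, the high-affinity interleukin-2 receptor chain Il2ra lets them capture interleukin-2, and the receptor Ctla4 takes costimulatory ligands from antigen-presenting cells. In tumors Tregs often carry an activated tissue program with the chemokine receptor Ccr8 and the tumor necrosis factor receptors Tnfrsf4 (OX40) and Tnfrsf9 (4-1BB). CTLA-4 and PD-1 are the receptors that the antibodies of this study block, so that Tregs are themselves possible targets of anti-CTLA-4.

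Panc02, a mouse pancreatic tumor line, was grown under the skin of male wild-type C57BL/6 mice aged 6 to 7 weeks. Mice received 1 of the 8 combinations of PancVAX (neoantigen peptides on days 12 and 19, mixed with AddaVax and a STING agonist, at 50 ug, an amount that the vaccine methods give for each peptide), anti-PD-1 (100 ug, from day 12), and anti-CTLA-4 (100 ug, on days 15 and 22). The groups were isotype control, anti-PD-1, anti-CTLA-4, both antibodies, PancVAX, PancVAX + anti-PD-1, PancVAX + anti-CTLA-4, and PancVAX + both antibodies. Mice without an agent received isotype antibody or PBS in its place, so that the peptides and the adjuvants of PancVAX cannot be told apart. Tumors were harvested on day 38 by the labels, although a figure legend of the study gives an earlier day, and pooled by treatment. Each treatment had 1 library made from the whole tumor and 1 made after a Percoll gradient that enriches immune cells. That gave 16 RNA libraries, and the Percoll libraries also had T cell receptor sequences. Both libraries of a treatment are called its pool here. The preparation was also the sequencing batch, and no source used here says whether both libraries of a pool hold the same mice. P values therefore measure the spread between pools or libraries and not between mice. Each treatment had 1 pool, so that any effect of combining agents counts as spread between pools in the comparisons by agent. In the comparisons of treatment pairs, differences between the preparations that vary by treatment count as spread.

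Each library gave between 15 and 53 Tregs, with a median of 37, from 4881 to 10640 barcodes within the limits. The Tregs of a library held 116615 to 457189 UMIs in all, out of library totals of 77132398 to 176233225. A Treg had a median of 3463 UMIs and 1483 genes, against 3517 UMIs in Foxp3-negative CD4 T cells and 4427.5 in CD8 T cells. In bulk sums such as these, fewer cells of a state and less RNA per cell cannot be told apart.

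The steps of the gate were followed one at a time. Foxp3 was detected in 1037 barcodes within the limits, the CD3 limit left 770, the CD8 limit 636, the Cd79a limit 628, and the C1qb limit 598. The 213 barcodes that only the CD3 limit kept out did not look like T cells, with a median of 23283 UMIs, Ctla4 in 1.88%, and Tnfrsf4 in 3.76%. By contrast, the 30 barcodes that only the C1qb limit kept out carried Ctla4 in 80.0% and Ccr8 in 66.7%. At the edges, 9 barcodes just outside with 2 C1qb UMIs had Il2ra in 77.8% and Ctla4 in 88.9%, and 70 members just inside with 1 C1qb UMI had them in 55.7% and 84.3%. The 269 members with exactly 1 Foxp3 UMI (45.0%) had Il2ra in 58.0% and Ctla4 in 76.6%, against 63.8% and 87.8% of the 329 members with more. The 24 members with a lone CD3 UMI had Ctla4 in 37.5% and Ccr8 in 20.8%. Cd4 was not part of the gate, and 304 members (50.8%) had a Cd4 UMI.

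Foxp3 was nearly absent from cells that should lack it. At least 1 Foxp3 UMI was found in 0.263% of 6094 B cells (Cd79a without CD3; median 12111.5 UMIs), in 0.159% of 21976 macrophages (median 7249.5 UMIs), and in 0.102% of 5879 neutrophils (median 1649 UMIs). CD8-positive T cells had it in 0.942% of 12956 cells, so that 122 Foxp3-positive CD8-positive barcodes stood outside the gate. No 2 members shared a barcode sequence, whereas 72 members had a sequence that also occurred among other barcodes within the limits, where 14.4% of all barcodes recurred in another library. No doublet caller was run.

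A minority of deep members carried most of the RNA. The 103 Tregs (17.2%) with over 10000 UMIs held 58.2% of all Treg UMIs, with a median of 19064 UMIs each. At least 2 UMIs of 10 tumor or stromal marker genes were present in 56 of these 103 barcodes (54.4%) and in 34 of the 495 others (6.87%). Krt18, a keratin of simple epithelia, was detected in 53.4% of them and in 9.2% of the 488 Tregs within the limits of the study (200 to 3000 genes, at most 10000 UMIs, and no hemoglobin UMI). The proliferation genes Mki67 or Top2a were present in 79 of the 103 (76.7%) and in 111 of the others (22.4%). These shares are not at equal depth. After thinning of each cell to the same number of UMIs, Mki67 was found in 12.6% of deep members. In all Tregs, deep ones included, it was then found in 7.86%. Top2a was then found in 18.4% of deep members and 7.69% of all Tregs. A T cell receptor β (TRB) chain was found in 44 of 59 deep Percoll members (74.6%) and in 76.7% of the 270 others, and the difference between these shares was not tested. Deep members numbered 2 to 13 per library. Because these barcodes weigh on every sum, each result below is also given within the limits of the study where that changed it, and the part of tumor cell RNA or doublets in a result was not tested.

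**Figure D1:**
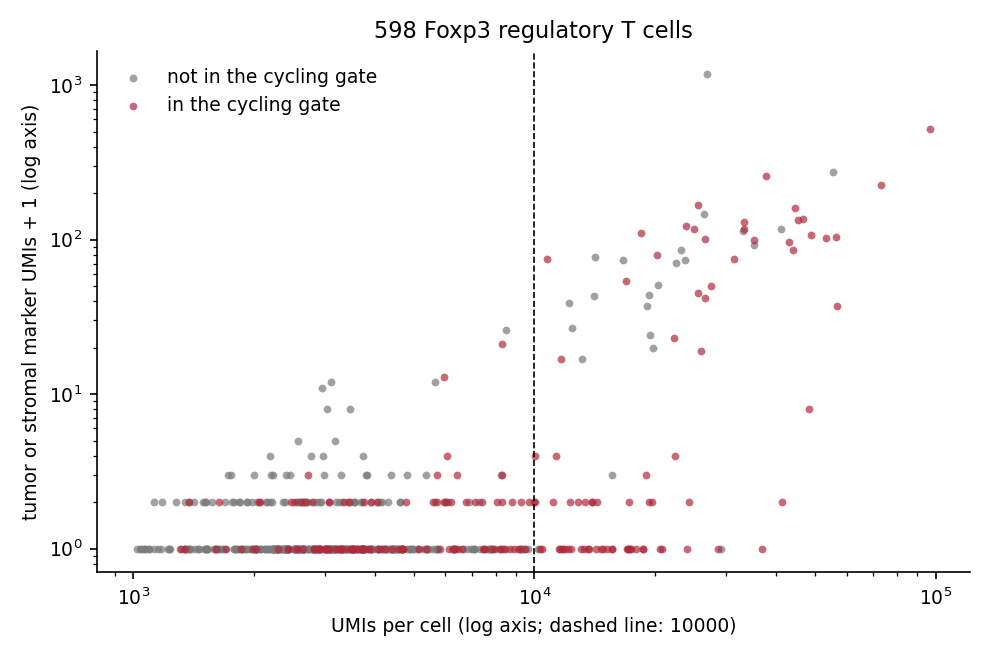
Each point is 1 of the 598 Tregs, with its total UMIs on the x axis and its UMIs of the 10 tumor or stromal marker genes plus 1 on the y axis, both log axes, and red marks the cycling gate (Mki67 or Top2a). Right of the dashed line at 10000 UMIs, 54.4% of members held at least 2 marker UMIs, and left of it 6.87%.

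Over all 598 members the summed level of the 10 tumor or stromal markers was 1476 CPM (counts scaled to the same total in every class; 251 to 5462 over the libraries), and within the limits of the study it was 145 CPM (13.6 to 476). Foxp3-negative CD4 T cells stood at 942 CPM (56.6 to 1899). In Tregs the basal keratins Krt5 and Krt14, which are on that list, each reached 2352 CPM in the whole tumor library where they were highest. Of the 586 Krt5 UMIs in Tregs, 583 came from 2 deep members. The 10 macrophage markers summed to 204 CPM in Tregs and 219 CPM in Foxp3-negative CD4 T cells, and the 8 dendritic cell markers to 332 and 353 CPM. The 8 neutrophil markers were at 379 CPM (60.0 to 2003) in Tregs and 223 CPM in CD4 T cells. Of that sum 181 CPM came from Il1r2, a decoy receptor of interleukin-1 that was found in 30.9% of Tregs, and S100a8 and S100a9 came from 12 and 14 cells. Retnlg was at 0, and Cxcr2, Csf3r, and Clec4d were found in at most 5 Tregs each. The 8 B cell markers summed to 173 CPM (77.3 to 301) in Tregs and 47.5 CPM (25.7 to 109) in CD4 T cells. Nearly all of it was Ighm, the constant region of IgM, at 162 and 44.8 CPM. Of the others Cd79b was at 8.97 CPM in Tregs, Ms4a1, Cd22, Ighd, and Fcer2a were each found in at most 3 Tregs, and Pax5, the lineage factor of B cells, was at 0. The 10 CD8 and NK markers summed to 471 CPM against 1237 CPM.

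The label held up against the markers given for these cells. Beside Foxp3, which the gate fixes, Tnfrsf4 was detected in 91.5% of Tregs, Ctla4 in 82.8%, Ccr8 in 67.6%, Izumo1r (folate receptor 4) in 64.0%, and Il2ra in 61.2%. The same 5 genes were found in 69.6%, 38.1%, 28.0%, 16.9%, and 19.5% of Foxp3-negative CD4 T cells. CD8 T cells had them in 20.7%, 40.0%, 10.1%, 3.1%, and 13.8%. With each cell thinned to 1000 UMIs the shares in Tregs were 71.2%, 55.9%, 32.9%, 28.8%, and 30.9%, and those in CD4 T cells 41.1%, 18.1%, 14.3%, 7.0%, and 7.1%, so that Tregs stayed above at equal depth. Thinning left a Foxp3 UMI in 45.7% of members. Ikzf2 (Helios), a transcription factor of stable Tregs, was in 86.8% of Tregs, 22.2% of CD4 T cells, and 31.1% of CD8 T cells.

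**Figure D2:**
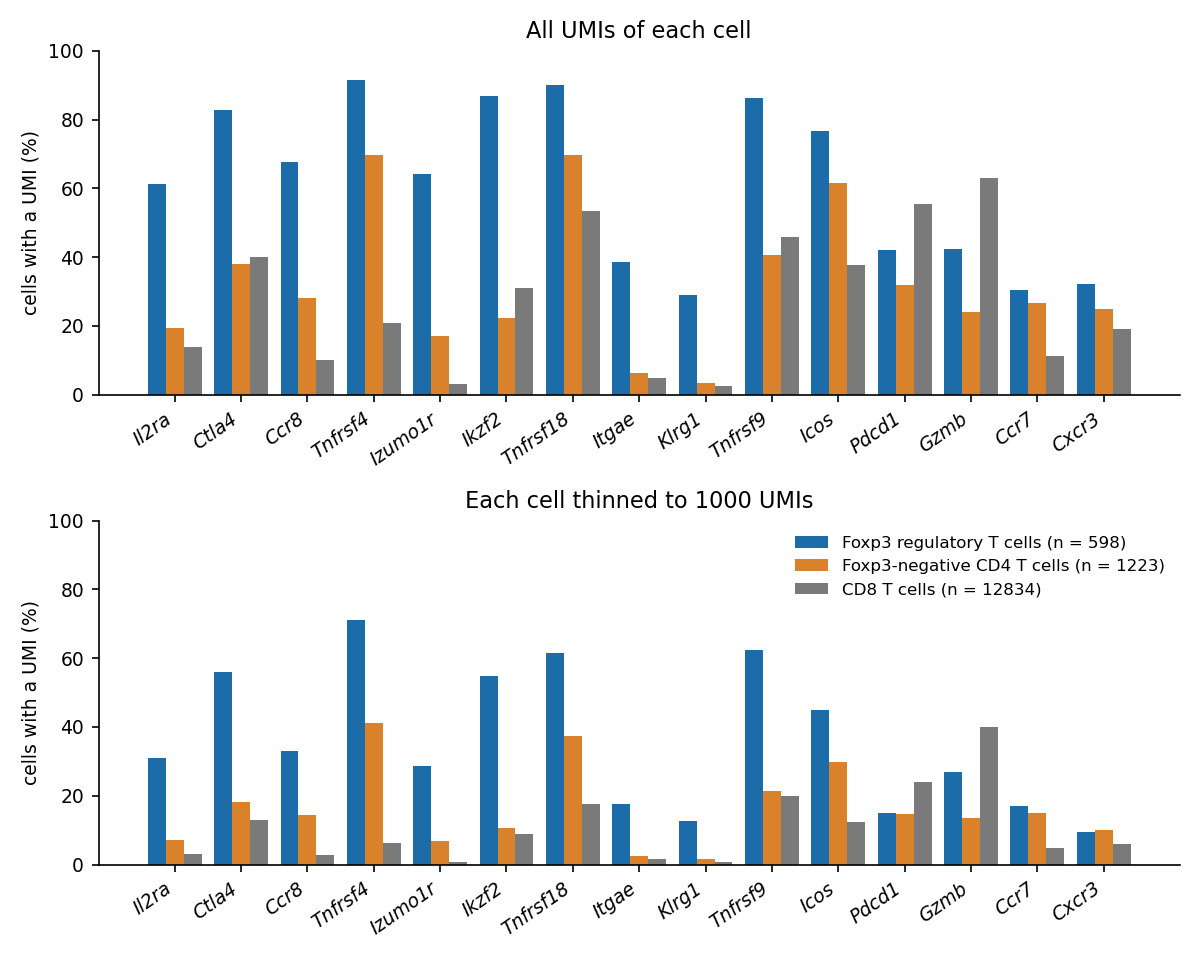
Bars give the percent of cells with at least 1 UMI of each of 15 genes in Tregs, Foxp3-negative CD4 T cells, and CD8 T cells, with all UMIs in the upper panel and with each cell thinned to 1000 UMIs in the lower panel. Tregs were highest for Il2ra, Ctla4, Ccr8, Tnfrsf4, and Izumo1r in both panels, while CD8 T cells were highest for Pdcd1 and Gzmb.

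Over all members the markers varied several-fold between libraries. Ctla4 ranged from 223 to 1424 CPM with a median of 817 CPM, Ccr8 from 62.1 to 638 CPM with a median of 422 CPM, and Il2ra from 109 to 562 CPM with a median of 287 CPM. Tnfrsf4 ranged from 481 to 2000 CPM with a median of 1449 CPM, and Pdcd1, which encodes PD-1, from 36.2 to 253 CPM with a median of 135 CPM. The fold between the lowest and the highest library was smaller within the limits of the study for Il2ra (348 to 704 CPM), Tnfrsf4 (1600 to 3358 CPM), and Ctla4 (717 to 2326 CPM). The anti-CTLA-4 whole tumor library, which also had the fewest Tregs (15), was the lowest of the 16 for Foxp3, Il2ra, Ctla4, Ccr8, Tnfrsf4, and Pdcd1 over all members, 4 of its 15 being deep. Within those limits the lowest Foxp3 and Il2ra values were those of Percoll libraries, while the lowest values of Ctla4, Ccr8 (209 CPM), Tnfrsf4, and Pdcd1 (81.4 CPM) were still those of whole tumor libraries.

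To describe what Tregs express beyond the gate, their UMIs were summed by pool and compared with those of Foxp3-negative CD4 T cells of the same pools (8 against 8, with the pool as a block). A gene was called at an adjusted P value under 0.05 in edgeR's quasi-likelihood test with Benjamini-Hochberg adjustment and an absolute log2 fold change over 0.5, and all adjusted P values below are from that test. Of 7843 genes tested, 614 were called (7.83%), with 246 higher in Tregs (3.14%) and 368 lower (4.69%). The median log2 fold change of all genes was -0.02. Within the limits of the study the split leaned the other way, with 443 higher (8.51%) and 398 lower (7.65%) of 5206 genes. Of the 614 calls, 446 recurred there in the same direction. Foxp3-negative CD4 T cells needed a Cd4 UMI and Tregs did not. With a Cd4 UMI required of Tregs too, 586 genes were called, 428 of them among the 614 in the same direction.

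The Treg identity list, 14 genes of which 13 were tested, stood out with 9 higher and none lower and a median log2 fold change of 1.56. Its lead was Itgae, the integrin chain CD103 that binds E-cadherin on epithelia, at 40.0, 125, and 147 CPM (lowest, median, and highest pool) in Tregs against 3.01, 20.9, and 28.4 CPM in CD4 T cells. Every Treg pool lay above every CD4 pool, and the log2 fold change was 2.37 ± 0.14 (SE; adjusted P = 9.98e-08). Il2ra stood at 193, 294, and 348 CPM against 45.1, 66.3, and 77.1 CPM, again without overlap, with a log2 fold change of 2.06 ± 0.13 (adjusted P = 1.15e-07). Lrrc32 (GARP), which docks latent TGF-β on the Treg surface, was at 17.4, 52.1, and 62.2 CPM against 1.84, 7.70, and 18.4 CPM. Its pools overlapped slightly, although Tregs were higher in each of the 8 pools (log2 fold change 2.55 ± 0.24, adjusted P = 5.29e-06). Ikzf2 was at 350, 563, and 730 CPM against 68.0, 127, and 205 CPM (2.03 ± 0.22, adjusted P = 2e-05). Ikzf4 (Eos), Izumo1r, Ctla4, Capg, and Tnfrsf18 (GITR) completed the 9, with log2 fold changes from 0.66 to 1.66. Ctla4 stood at 451, 809, and 1223 CPM against 176, 234, and 382 CPM without overlap (1.61 ± 0.21, adjusted P = 0.000123). Nrp1, a receptor often used to mark thymus-derived Tregs, was not higher, at a log2 fold change of -0.49 (adjusted P = 0.0516), and passed as lower within the limits of the study (-0.56, adjusted P = 0.0342).

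The tissue effector list followed, with 9 of 15 tested genes higher, none lower, and a median of 0.76. Klrg1, a receptor of terminally differentiated effector cells, was at 48.7, 102, and 193 CPM in Tregs and at 1.84, 9.24, and 80.8 CPM in CD4 T cells (log2 fold change 2.83 ± 0.39, adjusted P = 0.000169). Tregs were higher in each of the 8 pools, although the ranges overlapped. Ccr8 was at 223, 386, and 583 CPM against 105, 156, and 232 CPM, higher in 7 of 8 pools (1.20 ± 0.19, adjusted P = 0.000497). Tnfrsf4 was at 892, 1383, and 1695 CPM against 426, 575, and 728 CPM without overlap (1.07 ± 0.12, adjusted P = 4.31e-05). Tnfrsf9 rose by 1.27, the interleukin-33 receptor Il1rl1 (ST2) by 1.26, the tumor necrosis factor receptor Tnfrsf1b by 0.80, and the transcription factor Maf by 0.76 on the log2 scale, the last not without the PancVAX + anti-PD-1 pool. Icos, a costimulatory receptor, was not called at 0.37 (adjusted P = 0.196) and was called within the limits of the study at 0.73 (adjusted P = 1.21e-06).

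Of the suppressive mediators, 6 of 11 tested genes were higher and none lower (median 0.76). Itgb8, an integrin chain that activates latent TGF-β, was at 33.6, 44.6, and 71.8 CPM against 1.84, 9.32, and 25.0 CPM without overlap (log2 fold change 2.03 ± 0.24, adjusted P = 5.01e-05). The cytokine Il10 was at 17.8, 28.1, and 87.9 CPM against 3.69, 9.60, and 26.9 CPM, with overlapping pools (1.72 ± 0.33, adjusted P = 0.00253). Areg (amphiregulin), a growth factor of tissue repair, rose by 1.37 (adjusted P = 0.00275), and the cytotoxic protease Gzmb by 1.24 (adjusted P = 0.0025). Tgfb1, the TGF-β gene itself, did not pass at 0.04 (adjusted P = 0.882), and the ectonucleotidase Nt5e (CD73) did not at 0.73 (adjusted P = 0.0596). The calls of the ectonucleotidase Entpd1 (CD39; 0.76, adjusted P = 0.0296) and of the cytokine subunit Ebi3 (0.84, adjusted P = 0.0411) were lost when any of 6 of the 8 pools was left out, as was that of the effector factor Prdm1 (0.64, adjusted P = 0.0318).

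Other receptors split. Of 7 inhibitory receptors tested, Ctla4 and Tigit were higher and Cd160 was lower, with a median of -0.03. Tigit, which competes for ligands of the poliovirus receptor family, was at 197, 414, and 649 CPM against 99.1, 193, and 257 CPM (1.05 ± 0.20, adjusted P = 0.00218). Pdcd1 was at 53.9, 134, and 186 CPM against 107, 149, and 197 CPM and did not pass (-0.24 ± 0.18, adjusted P = 0.535), and neither did Lag3 (-0.40, adjusted P = 0.43). The sign of Pdcd1 turned within the limits of the study (0.21, adjusted P = 0.341) and with a Cd4 UMI required (0.10). Of 9 costimulatory genes, 5 were higher and 3 lower. The lowest was the ligand Cd40lg, with which helper T cells activate B cells and dendritic cells, at 1.42, 4.07, and 17.6 CPM against 80.5, 82.2, and 121 CPM (-4.08 ± 0.27, adjusted P = 2.79e-07).

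**Figure D3:**
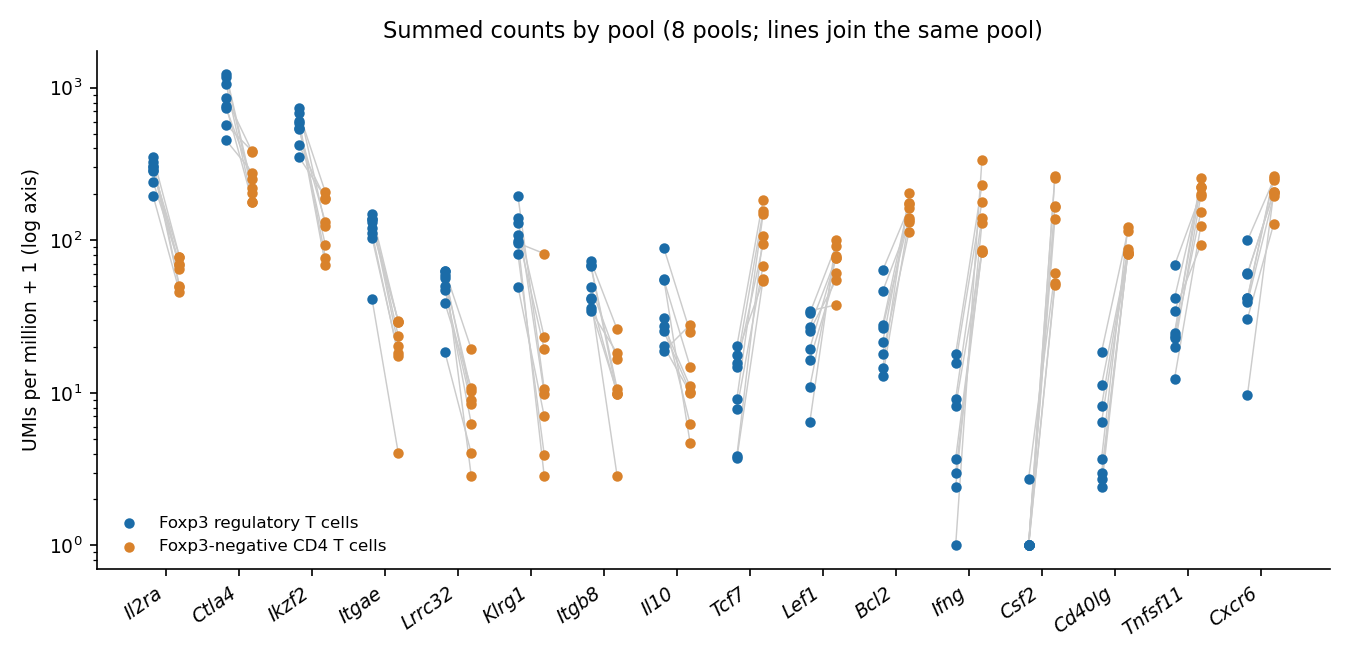
CPM plus 1 of 16 genes on a log axis, each point being 1 of the 8 pools, for Tregs and Foxp3-negative CD4 T cells, with a line joining both classes of a pool. Il2ra, Ctla4, Ikzf2, and Itgae lay higher in every Treg pool, and Tcf7, Bcl2, Ifng, and Cd40lg lay lower.

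Outside these lists, the genes with the smallest P values on the higher side were Glrx (glutaredoxin), Snx9 (sorting nexin 9), Bmyc, Arl5a, and Psen2 (presenilin 2). Glrx was at 205, 359, and 523 CPM against 73.4, 92.6, and 126 CPM without overlap (log2 fold change 1.70 ± 0.13, adjusted P = 5.36e-07). The other 4 rose by 1.26 to 2.22 on the log2 scale, each without overlap of the pools.

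Some of the genes called as lower had very few UMIs in Tregs. Csf2, which encodes GM-CSF, had 1 UMI in all Tregs and 1025 in Foxp3-negative CD4 T cells, a ratio of 653 in CPM (95% counting interval 117 to 25807.5; adjusted P = 6.73e-10). The granzyme Gzme had 1 against 419 UMIs (ratio 267, interval 47.6 to 10564) and Gzmk 2 against 202 UMIs (ratio 64.3, interval 17.6 to 535). These intervals cover counting error only. Csf2 and Gzmk were lower in Tregs in 8 of 8 pools, and Gzme in 6. Ifng, the main cytokine of type 1 helper cells, was at 0, 4.94, and 17.0 CPM in Tregs against 82.6, 134, and 334 CPM (-4.71 ± 0.32, adjusted P = 2.79e-07). Of 11 type 1 helper genes, 8 were lower, with a median log2 fold change of -1.80. The 8 lower ones included Gzma (-5.53), Ly6c2 (-3.73), the chemokine Ccl5 (-1.80), and the lineage factor Tbx21 (T-bet; -1.30). The CD8 and NK list, which shares Gzma with that list, had 6 of 7 genes lower.

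Genes of resting and recirculating T cells were also lower, at 6 of 11 and a median of -0.87. Tcf7, the transcription factor TCF-1 of naive and stem-like T cells, was at 2.72, 11.0, and 19.1 CPM against 53.4, 99.6, and 183 CPM without overlap (-3.49 ± 0.25, adjusted P = 3.84e-07). S1pr1, which guides exit from tissue, fell by 2.02, Lef1 by 1.85, Satb1 by 1.61, Klf2 by 1.08, and Bach2 by 0.87 on the log2 scale, Bach2 with a call in only 2 of the 8 fits that leave out a pool.

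Of the interleukin-2 and STAT5 genes, Il2ra was higher and Bcl2, Socs1, and Socs3 were lower among 13 tested (median -0.27). The survival gene Bcl2 was at 11.9, 23.2, and 62.6 CPM against 112, 151, and 202 CPM without overlap (-2.59 ± 0.22, adjusted P = 2.45e-06). Of 10 chemokine receptors tested, 3 were higher, among them Ccr8 and Ccr6, and Cxcr6 was lower. Cxcr6, a receptor of tissue-resident effector T cells, was at 8.70, 40.7, and 98.8 CPM against 127, 205, and 262 CPM without overlap (-2.35 ± 0.22, adjusted P = 6.38e-06). Tnfsf11 (RANKL), a cytokine of activated T cells, was at 11.4, 23.2, and 67.4 CPM against 91.8, 197, and 256 CPM (-2.78 ± 0.22, adjusted P = 1.2e-06). Ms4a4b, a membrane protein of T cells, fell by 2.53 (adjusted P = 2.88e-07).

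Activation and interferon genes were called in part, where 4.69% of all genes tested were called lower and 3.14% higher. Of 14 genes induced by the T cell receptor, 4 were lower and none higher (median -0.20), among them the phosphatase Dusp2 (-1.54) and the retention receptor Cd69 (-0.81). Of 17 interferon-stimulated genes, 4 were lower and none higher (median -0.17). They were Ifitm1 (-4.20), Ifitm2, Ifitm3 (with a call in 2 of the 8 fits that leave out a pool), and Irf7, and within the limits of the study 3 others were higher, among them Ifi27l2a and Ly6e. None of 12 cell cycle genes was called (median 0.21), and of 12 dissociation stress genes Hspa1a and Ier2 were lower.

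The B cell markers had 1 gene tested, Ighm, the immunoglobulin heavy chain mu, and it was higher, at 105, 162, and 251 CPM against 26.9, 54.0, and 81.2 CPM without overlap (1.63 ± 0.20, adjusted P = 6.77e-05). Of 7 tumor or stromal markers, the basal keratins Krt5 and Krt14 were called higher on the strength of the PancVAX + anti-CTLA-4 pool, at 825 and 831 CPM, with 6 of the 8 Treg pools at 0, and DESeq2 called neither. T cell receptor segments were counted as a group, with 2 of 46 higher and 14 lower, the constant genes Trbc1 and Trbc2 being among those called.

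The members were split further by a cycling gate. Mki67 or Top2a was detected in 190 Tregs (31.8%), against 26.7% of CD4 T cells and 32.9% of CD8 T cells, and in 22.3% of Tregs within the limits of the study. After thinning of each cell to the same number of UMIs, Mki67 was found in 7.86% of Tregs, 5.31% of CD4, and 6.69% of CD8 T cells. Top2a was then found in 7.69%, 7.60%, and 9.52%. Deep members made up 12.7% to 31.5% of the Tregs of a pool, and their part in the cycling shares by pool was not tested. By pool the cycling share ran from 21.4% (both antibodies) to 37.6% (PancVAX + both antibodies). It did not pass for any agent, with the smallest exact permutation P at 0.143 (0.450 when adjusted over 9 comparisons, 3 of them on this gate). That was anti-PD-1, at 28.7% ± 6.69 (SD, n = 4 pools) against 34.7% ± 2.08 without. Within the limits of the study the values were 21.3% ± 6.71 and 21.9% ± 6.01 (exact permutation P = 0.943).

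The abundance of Tregs was compared between the 4 pools with each agent and the 4 without, by an exact two-sided permutation test over the 70 splits of the pools, whose smallest P is 0.0286. Per library, Tregs made up 1.78% to 5.30% of T cells (median 3.18%) and 0.187% to 0.771% of all barcodes (median 0.514%), and 12.6 to 37.4 CD8 T cells were found per Treg (median 20.8). The highest share of T cells was in the isotype control pool (4.31%, mean of its 2 libraries) and the lowest in the PancVAX + anti-PD-1 pool (2.40%), which had the most Tregs, 105. Exact binomial 95% intervals of single libraries were wide, such as 1.00% to 2.92% and 3.52% to 7.62% at the extremes. The T cells counted here include barcodes with a CD3 UMI but no UMI of Foxp3, Cd4, or the CD8 genes. In the PancVAX + anti-PD-1 pool 4552 T cells held 2753 CD8 T cells, 319 Foxp3-negative CD4 T cells, and 105 Tregs. In the PancVAX + both antibodies pool 3124 held 2134, 226, and 93.

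With PancVAX the share of T cells was 2.92% ± 0.510 (SD, n = 4 pools) against 3.54% ± 0.739 without (exact permutation P = 0.257, adjusted 0.771). By pool it ran from 2.40% to 3.60% with PancVAX and from 2.57% (anti-CTLA-4) to 4.31% (isotype control) without. As a share of all barcodes, Tregs were at 0.571% ± 0.0815 with PancVAX and 0.430% ± 0.0840 without (exact permutation P = 0.0857, adjusted 0.771). The T cells of libraries with PancVAX had lower median UMIs, 3327 to 4192.5 against 4863 to 6047, a gap that can move a gate on 1 UMI. With each cell thinned to 1000 UMIs, the share of T cells was 1.65% ± 0.282 against 1.90% ± 0.508. For anti-PD-1 the share of T cells was 3.16% ± 0.616 against 3.30% ± 0.816 (exact permutation P = 0.8) and for anti-CTLA-4 3.14% ± 0.470 against 3.31% ± 0.904 (exact permutation P = 0.771). The smallest share of all barcodes among the pools was that of anti-CTLA-4 (0.315%), although over the 4 pools with that antibody it was 0.489% ± 0.140 against 0.512% ± 0.0840 (exact permutation P = 0.743). None of the 9 comparisons of 3 measures by 3 agents passed. No measure set Tregs against Foxp3-negative CD4 T cells, and that ratio was not tested. With PancVAX these classes numbered 55 and 132, 105 and 319, 95 and 197, and 93 and 226, in the group order above. Without it they numbered 58 and 65, 63 and 102, 54 and 83, and 75 and 99. The smallest P that 70 splits allow was 0.0286, so that 1 comparison on its own could not pass after adjustment over the 9.

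Within the preparations the direction was not always the same. For PancVAX the share of T cells was lower in both, at 2.79% against 3.22% in whole tumor and 3.05% against 3.86% in Percoll libraries. For anti-PD-1 it was 3.37% against 2.63% in whole tumor and 2.95% against 3.96% in Percoll libraries, so that the preparations gave opposite signs.

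**Figure D4:**
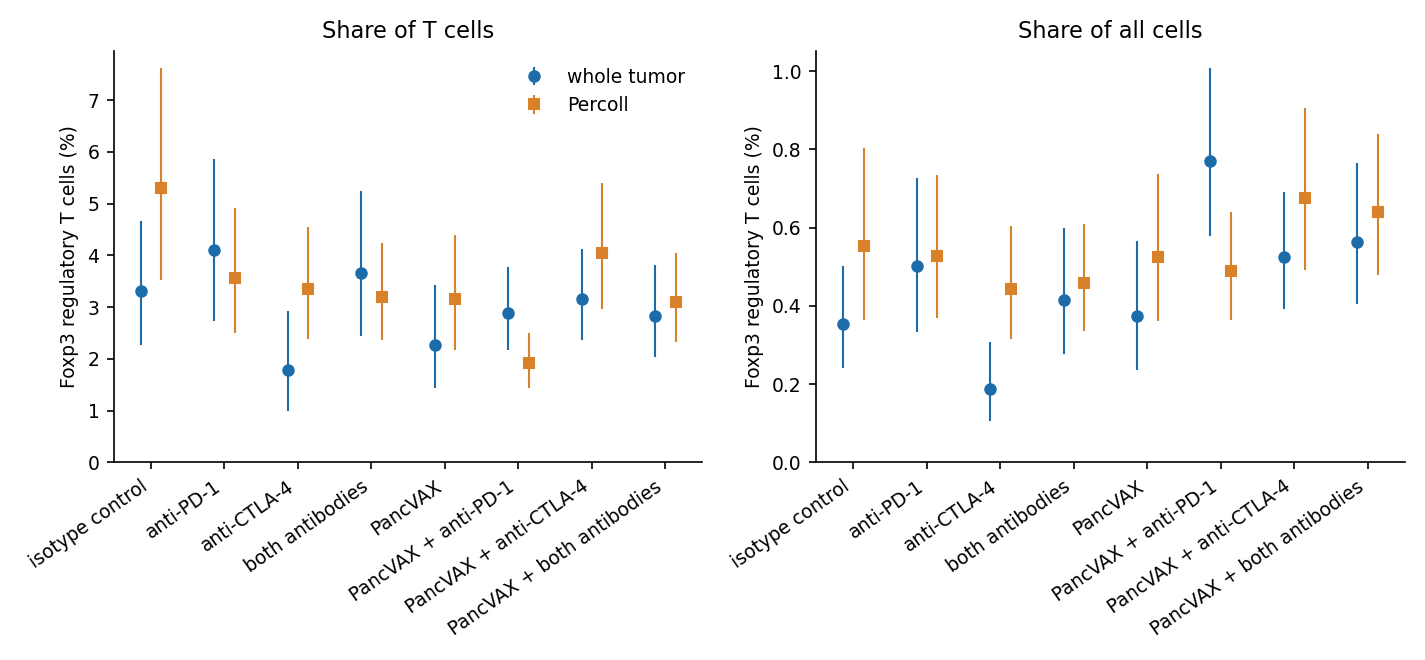
Tregs as a percent of T cells (left) and of all barcodes within the limits (right) for each of the 8 treatments, each point being 1 whole tumor or Percoll library and its bar the exact 95% binomial interval. Shares of T cells ran from 1.78% to 5.30%.

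Gene expression in Tregs was tested over the same pools, with the other agents as covariates. No gene was called for PancVAX, anti-PD-1, or anti-CTLA-4 among 7044 tested (0% in each) by edgeR, with 412, 637, and 214 genes at an unadjusted P under 0.05, and DESeq2 called 1, 3, and 1. In simulated data at the same depth, 63%, 55%, and 56% of 2-fold changes and 94%, 95%, and 95% of 4-fold changes were recovered. Each simulated gene had the same mean in all pools apart from the set change, and the spread typical of its level. Recovery with the real differences between pools was not tested. The antibody targets were not called in any comparison. Ctla4 was at 731 to 1223 CPM with PancVAX and 451 to 1049 CPM without (log2 fold change 0.45 ± 0.22, adjusted P = 0.85). With anti-PD-1 it was at 0.47 ± 0.22 (adjusted P = 0.554) and with anti-CTLA-4 at -0.21 ± 0.22 (adjusted P = 0.998). Pdcd1 was at 0.40, 0.43, and -0.39 on the log2 scale for the 3 agents in the same order.

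For PancVAX, Ly6c2, a surface antigen of effector T cells, was at 5.11 to 59.6 CPM in the 4 pools with PancVAX against 0 to 1.98 CPM without (adjusted P = 0.149). These values rest on 63 UMIs in 12 of the 598 Tregs, with 8 of the 16 libraries at 0 and 1 Percoll library at 89.7 CPM. Tyrobp, an adaptor of myeloid and NK cells, was at 54.5 to 111 CPM against 20.9 to 33.6 CPM (adjusted P = 0.352), while the 10 macrophage markers of these Tregs summed to 136 to 408 CPM with PancVAX and 73.1 to 158 CPM without. Within the limits of the study those sums were 148 to 655 CPM with PancVAX and 175 to 349 CPM without, which overlap. Whether macrophage RNA had a part in the Tyrobp values was not tested. Of 12 cell cycle genes 2 had a positive log2 fold change (median -0.31, against 0.01 over all genes), and within the limits of the study 1 of 11 did (median -0.55). The share of Tregs with Mki67 or Top2a had the other sign, at 33.7% ± 4.25 (SD, n = 4 pools) with PancVAX against 29.7% ± 6.67 without (exact permutation P = 0.371), and within the limits at 25.5% ± 5.21 against 17.7% ± 3.56 (exact permutation P = 0.0857, adjusted 0.771). Stmn1, a microtubule regulator of dividing cells, was there at 113 to 224 CPM against 225 to 341 CPM (adjusted P = 0.0699). Within those limits 2 of 3899 genes were called for PancVAX (0.0513%), Slc16a3 as higher (0.0256%) and the receptor segment Trbv13-3 as lower (0.0256%). Slc16a3, the lactate exporter MCT4, was at 170 to 315 CPM with PancVAX and 47.6 to 110 CPM without (log2 fold change 1.32 ± 0.23, adjusted P = 0.0214), and over all members it did not pass (1.03, adjusted P = 0.597).

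For anti-PD-1 no gene passed in edgeR. Krt18 was at 73.3 to 302 CPM with anti-PD-1 and 375 to 719 CPM without (log2 fold change -1.96 ± 0.34, adjusted P = 0.299), and the 10 tumor or stromal markers summed to 311 to 1084 CPM with it and 842 to 3796 CPM without, which overlap. Those sums were 25.0 to 349 CPM with it and 56.5 to 237 CPM without among Tregs within the limits of the study. The sum of 3796 CPM was that of the PancVAX + anti-CTLA-4 pool, in which Krt5 and Krt14 were highest. The immediate early gene Fos was at 312 to 583 CPM against 748 to 1397 CPM (-1.29 ± 0.23, adjusted P = 0.299), and was 1 of the 3 genes called by DESeq2 (-1.30, adjusted P = 0.000715), the others being Wfdc2, an epithelial secreted protein, and the receptor segment Trbv1. Fos was at -0.48 within the limits of the study (adjusted P = 1.00 in edgeR). All 12 dissociation stress genes had a negative log2 fold change (median -0.60), 8 of them at an unadjusted P under 0.05, as had 637 of the 7044 genes tested. Among Tregs within the limits 8 of 10 were negative (median -0.25), 3 of them at such a P, as had 177 of 3899 genes. On the other side, all 15 tissue effector genes tested were positive (median 0.49, against -0.00 over all genes), as Icos (0.72, adjusted P = 0.475). Within the limits of the study 7 of 15 were positive with a median of -0.04, and the difference of Krt18 was -0.06. The call count of 0 moved with single pools. Without the PancVAX + anti-PD-1 pool 61 genes were called (18 higher and 43 lower), without the PancVAX pool 18, and without either the anti-PD-1 or the PancVAX + both antibodies pool 1.

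For anti-CTLA-4, 12 of 13 genes induced by the T cell receptor had a negative log2 fold change (median -0.34), and within the limits of the study all 13 (median -0.33), 7 of them at an unadjusted P under 0.05. Over all genes the medians were -0.01 and 0.01, and 176 of 3899 genes within the limits had such a P. Cd69 was at 129 to 194 CPM with the antibody and 146 to 255 CPM without (-0.54 ± 0.18, adjusted P = 0.998). All 12 cell cycle genes were positive (median 0.26), as the survivin gene Birc5 (0.56, adjusted P = 0.998). By pool, Mki67 or Top2a was found in 21.4% to 37.6% of Tregs with the antibody and 27.6% to 34.8% without, which overlap. Within the limits of the study those shares were 14.2% to 30.7% and 18.6% to 24.8%, the lowest being that of the anti-CTLA-4 pool. The neutrophil alarmin gene S100a8 was at 5.68 to 23.9 CPM with anti-CTLA-4 and 0 to 270 CPM without (-3.28, adjusted P = 0.998). Its highest Percoll library stood at 531 CPM, and 8 of the 16 libraries were at 0. The 8 neutrophil markers summed to 139 to 306 CPM against 144 to 1119 CPM, and their part in the S100a8 difference was not tested.

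In all, 3 pairs of treatments were also compared over their whole tumor and Percoll libraries, with preparation as a block in a fit of all 16 libraries. No gene was called among 5200 tested (0% in each) by edgeR for PancVAX against isotype control, PancVAX + both antibodies against PancVAX, and both antibodies against isotype control, with 354, 181, and 344 genes at an unadjusted P under 0.05. DESeq2 called 2, 0, and 7 genes. Within the limits of the study the third pair had 1 called gene, Rln3, as higher (0.0381% of those tested), and the others none. In simulations of the first pair 5% of 2-fold and 52% of 4-fold changes were recovered, so that only large changes were detectable. Both comparisons against isotype control share its libraries. Ctla4 was at 0.78 ± 0.36, 0.23 ± 0.36, and 0.43 ± 0.36 on the log2 scale in the 3 pairs, and Pdcd1 at 0.59, -0.07, and 0.07. Pdcd1 had the opposite sign within the limits of the study in each pair (-0.83, 0.79, and -0.64), as did Ctla4 in the third (-0.072). The inhibitory receptor Lag3 was at 1.78 ± 0.54 with both antibodies added to PancVAX (adjusted P = 1). Ifitm3, an interferon-induced membrane protein, was at -2.02 ± 0.34 with both antibodies against isotype control (adjusted P = 0.0987; within the limits of the study -2.61, adjusted P = 0.111, both in edgeR). It was among the 7 genes of DESeq2, of which Lgals3 (-2.23), Gbp2 (-2.28), Cavin2 (-2.58), the epithelial keratin Krt8 (-2.38), and Lmna (-1.69) were also lower and the chemokine Ccl5 (1.90) was higher. The tumor or stromal markers summed to 536 CPM with both antibodies and 1551 CPM in isotype control, and deep members made up 13.3% and 24.1% of Tregs. The dendritic cell markers summed to 165 CPM with both antibodies and 523 CPM in isotype control. Among Tregs within the limits, that list was at 68.6 against 968 CPM, the neutrophil markers at 343 against 790 CPM, and the tumor or stromal markers at 68.6 against 92.2 CPM. The part of these cells' RNA in the differences was not tested.

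Genes were also compared between the preparations. Over the 8 pools, 8 of 5200 genes (0.154%) differed between the Percoll and the whole tumor libraries, 6 higher (0.115%) and 2 lower (0.0385%) in Percoll Tregs. Bhlhe40, a transcription factor induced by activation, was at 197, 356, and 398 CPM (lowest, median, and highest) in whole tumor and 528, 637, and 753 CPM in Percoll libraries without overlap (log2 fold change 0.91 ± 0.14, adjusted P = 0.0155). Rgs1, a brake on chemokine receptor signals, was at 171, 305, and 415 CPM against 333, 613, and 828 CPM, higher in Percoll in 8 of 8 pools (0.97 ± 0.15, adjusted P = 0.0199). The cytokine Tnf was at 0, 8.11, and 25.8 CPM against 21.3, 36.3, and 78.8 CPM (2.33 ± 0.40, adjusted P = 0.0379). The stress-induced Gadd45b (1.10) and Gadd45g (1.74) were also higher in 8 of 8 pools, and Napsa, a protease, was at 0 in 8 of the 16 libraries. The lower genes were Gm26532 (-1.45) and the scaffold Mpp7 (-0.87). Bhlhe40, Rgs1, and Gadd45b were also called within the limits of the study (0.83, 0.96, and 1.09), while Gadd45g (1.52, adjusted P = 0.112), Gm26532 (adjusted P = 0.206), and Mpp7 (-0.49, adjusted P = 0.364) did not pass there and Tnf and Napsa did not pass the filter on low counts. Gadd45g was higher in Percoll in 6 of 8 pools there, and Mpp7, with 0 of 8 over all members, in 2 of 8.

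Within the limits of the study 32 of 2628 genes were called (1.22%), 17 higher (0.647%) and 15 lower (0.571%) in Percoll Tregs. The mRNA decay factor Zfp36 rose by 1.21, Cd69 by 1.06, Tnfaip3, an inhibitor of NF-κB, by 0.71, and its fellow inhibitor Nfkbia by 0.62 on the log2 scale. Maf fell by 0.71 and Ikzf2 by 0.52. In the whole set of members these 6 genes were not called, with Zfp36 at 0.20. The count of 8 also fell to 0 without the PancVAX + anti-PD-1 pool and to 1 without either the anti-PD-1 or the isotype control pool. Bhlhe40 kept its call in 5 of the 8 fits that leave out a pool and Rgs1 in 3, while Tnf and Mpp7 kept it in none. Preparation and sequencing batch cannot be told apart.

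**Figure D5:**
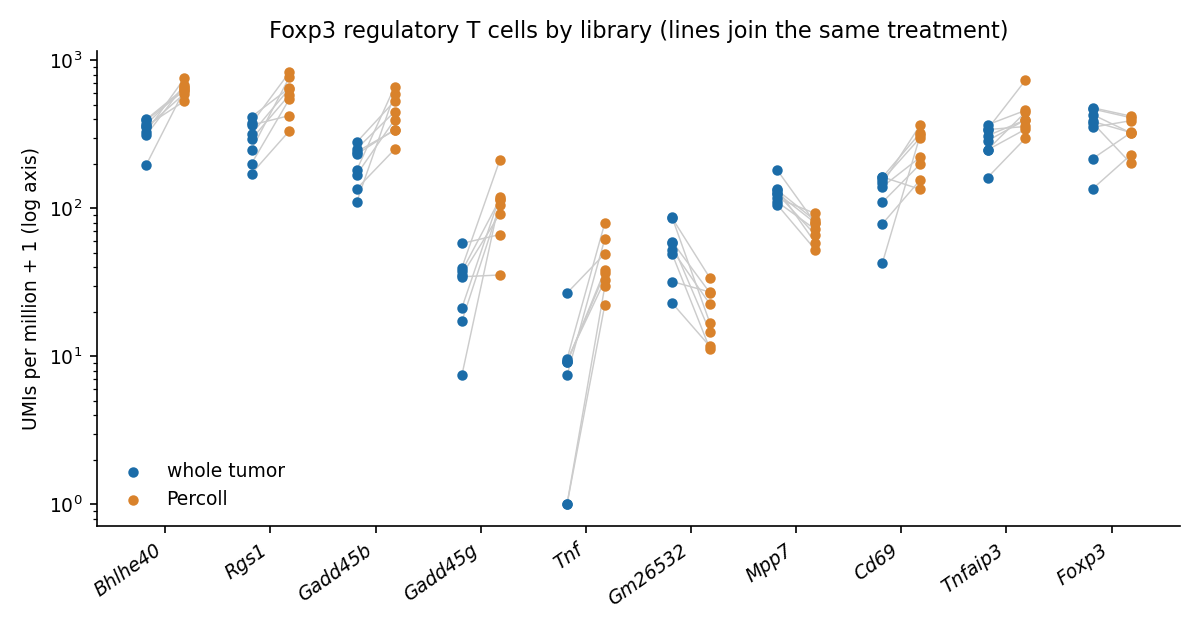
CPM plus 1 of 10 genes on a log axis in the Tregs of the whole tumor and Percoll libraries, with a line joining both libraries of each pool. Lines of Bhlhe40, Rgs1, Gadd45b, Gadd45g, and Tnf rise toward the Percoll library in 8 of 8 pools and those of Gm26532 and Mpp7 fall, while Foxp3 was higher there in 3 of 8.

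Clonal relations were read from the TRB chains of the 8 Percoll libraries. Of 329 Tregs there, 251 (76.3%) had a TRB chain, 243 of them exactly 1. A TRB chain was found in 85.1% of Foxp3-negative CD4 T cells and 81.3% of CD8 T cells. A clone was taken as the cells of 1 library with the same V gene and CDR3 nucleotides, the CDR3 being the loop that contacts the antigen peptide. The 243 cells fell into 231 clones, 220 of them with 1 cell, and 11 clones held 23 cells (9.47%), with 3 cells in the largest. Clones of at least 2 cells held 100 of 515 Foxp3-negative CD4 T cells (19.4%, largest 5) and 3907 of 5545 CD8 T cells (70.5%, largest 104), but these shares also rise with the number of cells read.

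The largest clone, the clone whose CDR3 recurred in other libraries, and the clones with the shortest and the longest joined stretch are shown out of the 11 with at least 2 cells, read from the deposited contigs. Each run is the CDR3 from 5′ to 3′, and capitals mark the bases between the start that at least 25% of the contigs of that V gene shared and the end that at least 25% of those of that J gene shared.
PancVAX + both antibodies, TRBV3 with TRBJ2-7: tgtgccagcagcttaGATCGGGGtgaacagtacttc
PancVAX + anti-PD-1, TRBV13-1 with TRBJ1-4: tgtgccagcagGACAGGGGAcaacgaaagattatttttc
PancVAX + anti-CTLA-4, TRBV12-2+TRBV13-2 with TRBJ2-3: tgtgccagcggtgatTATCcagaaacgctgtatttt
PancVAX + both antibodies, TRBV5 with TRBJ2-5: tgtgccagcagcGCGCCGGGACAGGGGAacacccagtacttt

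The joined stretches ran from 4 to 16 bases. The segments lie on mouse chromosome 6, where RefSeq (GRCm38.p6) places Trbv3 at 41048394 to 41048824, Trbv13-1 at 41116036 to 41116468, Trbj1-4 at 41534811 to 41534861, and Trbj2-7 at 41543810 to 41543856. The first clone had 3 Tregs, all with Ccr8 UMIs, and no Foxp3-negative cell. The CDR3 of the second, in 2 Tregs, was also found in 1 Treg of the anti-PD-1 library and in 2 barcodes of the both antibodies library outside the T cell classes compared here. Of the 243 Tregs, 4 (1.65%) had a TRB that a Foxp3-negative CD4 T cell of the same library also had. For CD8 T cells that number was 1. Over all clone sizes, 4 TRBs were found in Tregs of at least 2 libraries.

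The chance that 2 different Tregs of a library shared a TRB clone was 0.264% ± 0.208 (SD, n = 8 libraries), against 0.291% ± 0.233 in Foxp3-negative CD4 T cells. Tregs were lower in 3 of the 8 libraries, and the difference did not pass (exact sign-flip permutation P = 0.75, with 0.00781 the smallest possible). With PancVAX the chance was 0.355% ± 0.251 (SD, n = 4 libraries) against 0.172% ± 0.126 without (exact permutation P = 0.257). The PancVAX and the isotype control libraries had no clone of 2 cells. Without the PancVAX library the values were 0.473% against 0.172% (exact permutation P = 0.0286, the smallest possible), and without the isotype control library 0.355% against 0.230% (exact permutation P = 0.457). Among Tregs with at least 2 Foxp3 UMIs the sign turned, at 0.247% against 0.330% (exact permutation P = 0.829). The most used V assignment of Tregs was TRBV12-2+TRBV13-2 at 16.9%, against 10.7% of CD4 and 5.05% of CD8 T cells, followed by TRBV13-1 at 12.8% and TRBV3 at 9.05%. The joint name is the deposited one and does not tell which of its V genes was used. TRBV12-2 alone was at 2.06% and TRBV13-2 alone at 1.23% of Tregs. By library TRBV12-2+TRBV13-2 ranged from 5.26% to 26.5% of Tregs.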

How the data were processed

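The authors aligned reads with Cell Ranger 4.0.0 (mm10 in the submitters' processing notes) and deposited UMI counts per gene and barcode, and T cell receptor contigs of the Percoll libraries. Counts are raw. Genes were matched by the IDs of the matrix. The gate, members, and gene lists were chosen with earlier results of these data known. Named genes were the list members with the smallest P values, Ctla4 and Pdcd1, and up to 8 genes with the smallest P values per direction and comparison. Other genes were named after their values were seen. UMIs were summed by pool or library and tested with the quasi-likelihood test of edgeR 4.0.16 (TMM, filterByExpr; R 4.3.3), checked on simulated data with 200 changed genes. The SE of a log2 fold change was derived from that test, as its absolute value divided by the square root of the F statistic. DESeq2 1.42.0 was an alternative, as were every gene with a UMI in place of the filter, no replicate block, a Cd4 UMI required, at least 2 Foxp3 UMIs, thinning to 1000 UMIs, the limits of the study, 1 preparation only, and leaving out each pool or library. The rest was computed with scipy 1.17.1, pandas 2.3.3, and numpy 2.4.6 in Python 3.11.15. Library totals, depth per library, and intervals are given with the results, and all intervals cover counting error only. Promoter and microRNA sequences were not used here, and some genes and the gates that need them are not reported here.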

Additional observations from a re-analysis of the deposited data

Results flagged for a closer look

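Among 44 groups of 4 to 10 pools or libraries examined, 1 held a value far from the others, and chance gives about 1 in 20. In the 4 pools with PancVAX, the share of Tregs among all barcodes was 0.450% in the PancVAX pool and 0.601% to 0.630% in the 3 others. That gap was 0.837 of the whole range, against a critical value of 0.829.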

How the results depend on the processing

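Between 15 and 53 Tregs per library limit the precision of every share, and with 4 pools against 4 no exact test can go below 0.0286. The part of tumor cell RNA in deep barcodes was not tested, preparation and sequencing batch cannot be told apart, and intervals cover counting error only. The 22 study results were recomputed under 271 other settings, and direction, call, and size were kept in 128 of those that left out a pool or library and in 73 of the others. The cause of the shifts below was not tested.

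The difference in Treg share of T cells with anti-PD-1 turned positive on thinning (0.0338 percentage points), within the limits of the study (0.115), with at least 2 Foxp3 UMIs (0.196), and in whole tumor libraries (0.739). The share of all barcodes turned with anti-PD-1 in Percoll libraries (-0.0202) and with anti-CTLA-4 within the limits (0.0775) and in Percoll libraries (0.0305). The log2 ratio of CD8 T cells to Tregs turned with anti-PD-1 on thinning (-0.11), within the limits (-0.085), with at least 2 Foxp3 UMIs (-0.21), and in whole tumor (-0.35), and with anti-CTLA-4 in Percoll libraries (-0.0030). None of these differences had passed a test. Clone overlap against CD4 T cells turned with all TRA and TRB chains (0.0353), and that with PancVAX with at least 2 Foxp3 UMIs (-0.0833).

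Called genes numbered 127 for PancVAX, 133 for anti-PD-1, and 51 for anti-CTLA-4 without the filter on low counts, 1, 3, and 1 with DESeq2, 2 for PancVAX within the limits, and 1 for anti-CTLA-4 with a Cd4 UMI required. For PancVAX against isotype control there were 2 with DESeq2 and 54 without the filter. Without the filter PancVAX + both antibodies against PancVAX gave 20. Both antibodies against isotype control gave 7 with DESeq2, 1 within the limits, and 59 without the filter. Percoll against whole tumor gave 0 with a Cd4 UMI required, 32 within the limits, and 83 without the filter. Tregs against CD4 T cells gave 300 in Percoll libraries alone, 431 with DESeq2, and 586 with a Cd4 UMI required. The same comparison gave 841 within the limits and 879 without the filter. In that order, 284, 425, 428, 446, and 588 of the 614 main calls recurred in the same direction.

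The replicate block here was the preparation or the pool, since the labels pair the libraries only by treatment. Without the replicate block, PancVAX against isotype control gave 1 called gene and Percoll against whole tumor 5, the latter among 3485 genes tested in place of 5200. Sums by library gave 0 calls for each agent with or without the replicate block.

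Leaving out 1 pool at a time gave a Treg share of T cells of -0.382 to 0.199 percentage points with anti-PD-1 and of -0.475 to 0.161 with anti-CTLA-4, and a share of all barcodes of -0.0615 to 0.0343 with anti-CTLA-4. The log2 ratio of CD8 T cells to Tregs was -0.14 to 0.16 with anti-PD-1 and -0.079 to 0.19 with anti-CTLA-4. Called genes numbered 0 to 10 for PancVAX (10 without the PancVAX pool), 0 to 61 for anti-PD-1 (61 without the PancVAX + anti-PD-1 pool), 0 to 4 for anti-CTLA-4 (4 without the PancVAX pool), and 0 to 6 for Percoll against whole tumor (0 without the PancVAX + anti-PD-1 pool). Clone overlap was -0.0668 to 0.0202 against CD4 T cells and 0.123 to 0.301 with PancVAX, where it reached the smallest P possible without the PancVAX library.

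Of the named genes, Pdcd1 turned within the limits for PancVAX against isotype control (-0.83), PancVAX + both antibodies against PancVAX (0.79), both antibodies against isotype control (-0.64), and Tregs against CD4 T cells (0.21). With a Cd4 UMI required it turned in the last of these (0.10) and for both antibodies against isotype control (-0.26). Ctla4 turned for both antibodies against isotype control within the limits (-0.072), and Krt5 in Tregs against CD4 T cells with DESeq2 (-0.018). Leaving out 1 library or pool, Ctla4 ranged from -0.16 to 0.58 for PancVAX + both antibodies against PancVAX and from -0.48 to 0.071 for anti-CTLA-4. Pdcd1 ranged from -0.35 to 0.15 for PancVAX + both antibodies against PancVAX and from -0.083 to 0.25 for both antibodies against isotype control.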

Other observations

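The 122 barcodes with UMIs of both Foxp3 and a CD8 gene, which the gate leaves out, were much like Tregs in their markers. Ctla4 was detected in 86.9% of them, Tnfrsf4 in 84.4%, Ikzf2 in 75.4%, Ccr8 in 57.4%, Il2ra in 55.7%, and Izumo1r in 53.3%, where Foxp3-negative CD8 T cells had 40.0%, 20.7%, 31.1%, 10.1%, 13.8%, and 3.1%. Cd4 was detected in 39.3% of them, and they had a median of 5532 UMIs, against 3463 in Tregs. The 10 CD8 and NK markers summed to 1711 CPM in them, between 471 CPM in Tregs and 4748 CPM in CD8 T cells. Whether these barcodes hold a Treg together with a CD8 T cell was not tested.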
